A study of Mus musculus with 8 samples.

Results

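The RNA levels of 10 genes of glucose use were followed in whole mouse retina after loss of the splicing factor Rbfox2: the glucose transporter gene Slc2a1, the hexokinase genes Hk1 and Hk2, Gckr, which encodes a regulatory protein of hexose phosphorylation, the glycolytic enzyme genes Pfkm, Aldoc, Pkm, Ldha and Ldhb, and the lactate transporter gene Slc16a1. They are 10 of the 17500 genes in the table, and all 10 passed the filter on low counts, after which 16797 genes were tested. Gckr was chosen from its adjusted p-value in the comparison described here (edgeR, adjusted p = 0.0277, the gene with rank 8 by p), and the other 9 members for their place in the pathway. The differences of the members between the groups are therefore given as descriptions, with no test.

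Retinal RNA of 4 control mice (M833, M894, M896 and M898) and 4 Rbfox2 KD mice (M893, M901, M902 and M909) was sequenced, with 1 library per mouse; values by mouse are given in this order throughout. All mice were 6 months old and of C57BL/6J background, and the labels give a tamoxifen treatment of 4 months for every sample, controls included. The paper describes a short course of tamoxifen for the Rbfox2 KD mice, whose retinas were taken 4 months after the induced loss. The 4 months in the labels may therefore be this interval and not the length of dosing. The study's methods also name a vehicle, without saying which mice received it, so treatment may differ between the groups too. Per the study's methods, the Rbfox2 KD mice were Rbfox2 fl/fl animals with an inducible Cre transgene, in which recombination was induced in adulthood, and the controls were heterozygous Rbfox2 fl/+ animals of the same age. The transgene was not specific to the retina, so the deletion was not limited to retinal cells. The groups also differ in the Cre transgene and in the number of floxed alleles, and these cannot be told apart from the loss of Rbfox2.

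Glycolysis splits glucose into pyruvate, and in the retina much of that pyruvate becomes lactate even where oxygen is present (aerobic glycolysis), for which photoreceptors are known. Glucose enters through facilitative transporters such as GLUT1, hexokinases trap it as glucose 6-phosphate, and monocarboxylate transporters carry lactate between photoreceptors, Muller glia and the pigment epithelium. The Gckr product is best known from liver, where it restrains the phosphorylation of glucose, more strongly with fructose 6-phosphate bound and less with fructose 1-phosphate.

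Total counts per library were 160630226 to 211283591, so that 3 counts correspond to 0.0144 to 0.0189 CPM (counts scaled by the library total and its TMM factor). Rbfox2 itself was at 144 to 157 CPM in the controls and 53.6 to 59.4 CPM in the Rbfox2 KD mice, so the labels and the targeted gene go together and transcript remained. The first principal component of log2 CPM, with 40.5% of the variance, set M901 and M902 (38.1 and 37.3) apart from the other 6 libraries (-28.4 to -0.35). The same 2 mice, both Rbfox2 KD, had 1440 and 1739 CPM of Xist, the RNA of the inactive X chromosome of females. The other 6, every control among them, had 1.71 to 2.22 CPM. The labels do not give the sex. The groups were thus not balanced in Xist, and the part of this in their differences was not tested. Over all genes tested, 11 (0.0655%) had an adjusted p under 0.05 in edgeR's quasi-likelihood test, 2233 (13.3%) had an unadjusted p under 0.05, and 1181 (7.03%) had groups that did not overlap. The table holds all 8 rod markers, with summed levels of 61966 to 69893 CPM. In bulk retina, fewer cells of a type and less RNA per cell cannot be told apart.

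Promoter sequence is shown for Gckr, the member whose groups did not overlap, and for Ldha and Slc16a1, which lie at the lactate end of the pathway and hold E-boxes. RefSeq (GRCm38.p6) gave 17 windows of 250 bases before a transcript start for the 10 members. The motifs were searched on both strands. The A form of the core of the hypoxia response element was spelled ACGTG. Its G form was searched with the letters GCGTG. The E-box, bound by factors such as Myc, was the palindrome CACGTG. An E-box contains the A form on each strand and is therefore counted there too. The A form was present in 7 of the 17 windows, against 16.6% of all 32851 RefSeq windows of this length, the G form in 9, against 28.2%, and the E-box in 3, against 6.02%. The windows are not all independent, since 2 of the 4 Pfkm windows overlap and share 1 G form site. Either hypoxia form was found in 13 of the 17 windows (76.5%), against 38.6% of all RefSeq windows. These windows came from 9 members, a count with no share over all genes beside it. The windows were not matched for base composition, so no enrichment is read from these shares. The Gckr window held no match to any of the motifs. These matches describe letters and not binding. The stretches below are the plus strand, on which all 3 genes lie, with both hypoxia forms, on either strand, in capitals. Gckr is cut at 130 bases, at chr5:31297313-31297442, because its GENCODE gene starts at the next base. The Ldha window is chr7:46845554-46845803, inside an intron of the longer GENCODE gene model, and holds 2 E-boxes. The Slc16a1 window is chr3:104638414-104638663 and holds 1 E-box.
Gckr: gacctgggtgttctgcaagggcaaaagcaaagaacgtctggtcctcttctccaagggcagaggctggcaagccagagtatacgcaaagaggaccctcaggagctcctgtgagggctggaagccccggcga
Ldha: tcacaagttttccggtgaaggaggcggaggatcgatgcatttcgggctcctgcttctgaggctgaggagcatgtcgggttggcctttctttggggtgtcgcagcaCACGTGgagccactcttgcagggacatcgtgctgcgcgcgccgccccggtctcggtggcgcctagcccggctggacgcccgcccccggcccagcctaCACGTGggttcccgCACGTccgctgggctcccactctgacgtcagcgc
Slc16a1: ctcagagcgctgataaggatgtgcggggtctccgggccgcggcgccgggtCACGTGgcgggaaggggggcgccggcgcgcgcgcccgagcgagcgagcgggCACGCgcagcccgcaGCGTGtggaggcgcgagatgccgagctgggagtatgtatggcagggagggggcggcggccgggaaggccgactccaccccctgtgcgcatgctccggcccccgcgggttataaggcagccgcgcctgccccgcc

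Compared per length, as deposited FPKM (fragment counts divided by gene length and library total, and so tied to the lengths the authors used), the members spanned a wide range in the control retinas. Pkm, the pyruvate kinase of most adult tissues, was highest at 1376 ± 50.6 FPKM (SD, n = 4) and held place 11 among the 17500 genes. Ldha, the lactate dehydrogenase subunit of glycolytic tissue, followed at 601 ± 21.3 FPKM (place 39). Aldoc, the brain-type aldolase, was at 355 ± 35.3 FPKM, and Hk1 at 283 ± 6.05 FPKM. The ranges of these neighbouring genes over the 4 controls did not overlap. Hk2 (148 ± 15.4 FPKM), Ldhb (144 ± 11.6 FPKM) and Slc2a1 (114 ± 13.0 FPKM) came next, and each range overlapped that of its neighbour. Within mice, Hk2 was above Ldhb in 3 of the 4 controls, and Ldhb above Slc2a1 in 4 of 4, so the order of Hk2 and Ldhb was not separated by the spread between mice. Pfkm was at 74.8 ± 4.71 FPKM and Slc16a1 at 57.9 ± 4.09 FPKM. Gckr was the lowest member at 18.2 ± 0.765 FPKM, place 4247 of the table.

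Gckr (chromosome 5, 31297443 to 31327314, plus strand, GRCm38) was at 37.2, 36.7, 38.0 and 34.1 CPM in control mice M833, M894, M896 and M898. In Rbfox2 KD mice M893, M901, M902 and M909 it was at 45.4, 45.1, 47.2 and 47.1 CPM. All 4 Rbfox2 KD mice lay above all 4 controls, and the spread within each group was small beside the gap. The group means were 36.5 ± 1.70 and 46.2 ± 1.13 CPM (SD, n = 4 each), a difference of 26.6% or 0.34 on the log2 scale (SE 0.043). The difference was 0.34 without M901 and M902, and 0.31 to 0.36 over all 15 alternative settings. The adjusted p that chose the gene was less steady in edgeR's quasi-likelihood test: it was 0.0342 without M833, but 0.0618 without M894, 0.0877 without M896, 0.0691 without M898, 0.103 without M893, 0.0845 without M901, 0.0668 without M902 and 0.0547 without M909. At the threshold, Angpt2 lay just inside (adjusted p = 0.0277 in edgeR, log2 difference 0.72) and Frmpd4 just outside (adjusted p = 0.0561, log2 difference -0.42).

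**Figure D1:**
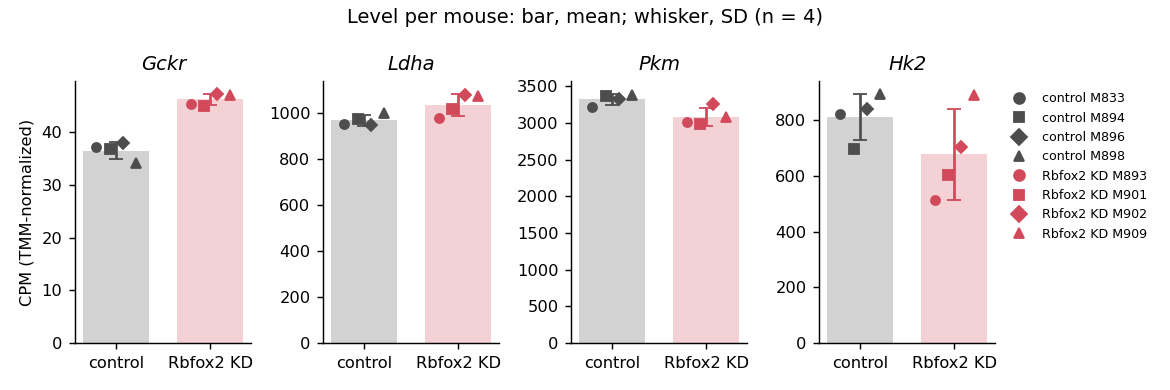
TMM-normalized CPM (vertical axes, each starting at 0) of Gckr, Ldha, Pkm and Hk2 in 4 control and 4 Rbfox2 KD mice; bars are group means, whiskers SD and symbols single mice. The Gckr points of the groups do not overlap, those of the other 3 genes do, and Hk2 runs from 512 to 891 CPM within the Rbfox2 KD group.

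Around Gckr, 7 genes within 100 kb were tested, 2 of them higher and 5 lower in the Rbfox2 KD mice. Their log2 differences ran from -0.08 to 0.07. In edgeR, 0 of the 7 had an unadjusted p under 0.05, against 13.3% of all genes tested. With only 7 genes, a count of 0 says little beside that share. Fndc4, the nearest, ends 1363 bases before Gckr on the minus strand, and was at 72.7 ± 0.984 and 76.4 ± 2.92 CPM (log2 difference 0.07, SE 0.035). No gene within 100 kb on the other side was tested, and no exon of another annotated gene overlapped those of Gckr.

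By the correlation of log2 CPM over the 8 libraries, the genes most like Gckr among 13755 with a mean of at least 1 CPM were Mok (r = 0.98), Nrm (r = 0.97), Nmnat1 (r = 0.96), Pacsin2 (r = 0.96) and Esr1 (r = 0.95). Nmnat1 encodes the nuclear enzyme of NAD synthesis, Nrm a nuclear envelope protein, Pacsin2 a membrane-bending adaptor and Esr1 an oestrogen receptor. All 5 were higher in every Rbfox2 KD mouse than in every control, with log2 differences from 0.15 for Pacsin2 to 0.89 for Esr1. Gckr was chosen for its group difference, so r over the 8 libraries favours genes that differ between the groups. From deviations around the group means, 1 of the 5, Mok, was again among the 5 most like Gckr (r = 0.98). For the others r was then 0.63 for Nrm, 0.50 for Pacsin2, 0.45 for Nmnat1 and 0.04 for Esr1. Among the members, r with Gckr over the 8 libraries ran from -0.76 for Pkm to 0.69 for Ldha, and these values hold the group difference too.

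Slc2a1 (GLUT1; chromosome 4, 119108711 to 119137983) carries glucose into the retina and its cells. It was at 269.9, 299, 264 and 330 CPM in the controls and at 282, 252, 249.7 and 297 CPM in the Rbfox2 KD mice. The low values were those of M901 and M902, the mice with high Xist, while M893 and M909 lay among the controls. The log2 difference was -0.10 (SE 0.080), -0.01 without M901 and M902, and 0.03 with a surrogate variable in the fit, so its sign was not steady; without control M898 it was -0.04. Summed markers of the ciliary epithelium, which lies beside the retina, were at 68.4, 106, 76.9 and 127 CPM in the controls and 82.4, 43.6, 45.1 and 93.8 CPM in the Rbfox2 KD mice. They were highest in M898 and lowest in M901 and M902, as Slc2a1 was highest in M898 and low in M901 and M902. Summed endothelial markers, of cells known for Slc2a1, were also lowest in M901 and M902, at 205 and 197 CPM against 215 to 254 CPM in the other 6 mice. In M833 and M898 the endothelial sums were 240 and 229 CPM, while Slc2a1 was lower in M833 than in M898. Summed pigment epithelium markers were at 101, 208, 94.7 and 239 CPM in the controls and 119, 82.8, 129 and 213 CPM in the Rbfox2 KD mice. They were also highest in M898 and lowest in M901, but higher in M902 than in M893, while Slc2a1 was lower in M902. The part of any of these cell types, or of the difference in Xist, in the Slc2a1 values was not tested.

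Hk1 (chromosome 10, 62268855 to 62379908), the hexokinase of neurons in general, was at 1202, 1125, 1181 and 1171 CPM in the controls and 1202, 1232, 1185 and 1194 CPM in the Rbfox2 KD mice. The groups overlapped, and the difference was 0.04 on the log2 scale (SE 0.038), or 0.02 without control M894. Hk2 (chromosome 6, 82725025 to 82774454), the hexokinase known from photoreceptors and tumours, was at 823, 697, 839 and 892 CPM in M833, M894, M896 and M898. In M893, M901, M902 and M909 it was at 512, 603, 705 and 891 CPM. In this group, M893 and M901 lay below every control and M909 at the level of the highest. The log2 difference was -0.26 (SE 0.15), and it moved to -0.15 without M893 and to -0.42 without M909. Hk2 was the most variable member, with a biological coefficient of variation of 15.0% (percentile 72.4 of all genes tested) against 5.27 to 8.71% for the other 9.

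Of the hexokinase FPKM, Hk1 made up 64.6 ± 1.67% in the controls and 69.0 ± 4.94% in the Rbfox2 KD mice. Hk2 made up 33.7 ± 2.03% and 29.0 ± 5.02%. Hkdc1 held 0.920 ± 0.358% in the controls and Hk3 0.0291%. The share of Hk1 over Hk2 depends on the gene length used: with the longer union of GENCODE exons, Hk1 held 49.3% and Hk2 48.8% in the controls.

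Pfkm (chromosome 15, 98092589 to 98132451), the muscle-type subunit of the enzyme that commits sugar to glycolysis, was at 194, 214, 214 and 215 CPM in the controls and 205, 200, 191 and 184 CPM in the Rbfox2 KD mice. Control M833 stood apart from the other controls and lay among the Rbfox2 KD mice. The difference was -0.10 on the log2 scale (SE 0.047). By the lengths in the FPKM, Pfkm had the smallest part of the 3 subunits, with 22.4 ± 1.08% of their FPKM in the controls beside 42.3 ± 1.04% for Pfkl and 35.3 ± 1.47% for Pfkp; with GENCODE lengths the order turned, with Pfkl at 44.4%, Pfkm next at 35.6% and Pfkp the lowest.

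Aldoc (chromosome 11, 78322968 to 78327781) was at 526, 625, 605 and 644 CPM in the controls and at 565, 563, 545 and 545 CPM in the Rbfox2 KD mice. The control M833 was again the lowest of its group and below every Rbfox2 KD mouse. The difference was -0.11 (SE 0.059), and -0.17 without M833. M833 also stood apart in summed ganglion cell markers, at 652 CPM against 1010 to 1052 CPM in the other controls; their part in the low values of M833 was not tested. Aldoa, which acts at the same step, was at 2235 ± 74.5 FPKM in the controls, and Aldoc held 13.7 ± 0.897% of the aldolase FPKM there and 13.3 ± 0.781% in the Rbfox2 KD mice.

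Pkm (chromosome 9, 59656368 to 59679375), which makes pyruvate, was at 3217, 3373, 3332 and 3385 CPM in the controls. In M893, M901, M902 and M909 it was at 3017, 2987, 3262 and 3088 CPM. All but M902 lay below every control. The difference was -0.11 (SE 0.044) and -0.13 without M901 and M902. Counts per gene do not separate the M1 and M2 splice forms of this gene.

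Ldha (chromosome 7, 46841475 to 46855627) was at 953, 976, 950 and 1001 CPM in the controls and 979, 1017, 1079 and 1075 CPM in M893, M901, M902 and M909. All but M893 lay above every control. The difference was 0.10 (SE 0.044). Ldhb (chromosome 6, 142490249 to 142507957), the subunit that favours lactate use, was at 167, 189, 188 and 197 CPM in the controls and 177, 177, 166 and 169 CPM in the Rbfox2 KD mice, a difference of -0.10 (SE 0.050) with groups that overlapped. The ratio of Ldha to Ldhb FPKM was 4.18 ± 0.234 in the controls (4.02 to 4.52) and 4.80 ± 0.372 in the Rbfox2 KD mice (4.40 to 5.17). M893, at 4.40, lay within the control range. The ratio is tied to the gene lengths: Ldha held 80.6% and Ldhb 19.4% of their FPKM in the controls, but 71.3% and 28.7% with GENCODE lengths.

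Slc16a1 (MCT1; chromosome 3, 104638668 to 104658462), a transporter of lactate and pyruvate, was at 252, 240, 250 and 279 CPM in the controls and 228, 252, 245 and 242 CPM in the Rbfox2 KD mice. The groups overlapped, with a difference of -0.08 (SE 0.051) that moved to -0.03 without M898, to -0.05 without M893 and to -0.12 without M901 and M902. It held 66.5 ± 2.40% of the FPKM of 4 monocarboxylate transporters in the controls, with Slc16a3 at 27.5 ± 1.11%, and 80.1% with GENCODE lengths. Slc2a1 held 82.0 ± 1.63% of the class 1 glucose transporters, with Slc2a3 at 17.7 ± 1.59%.

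**Figure D2:**
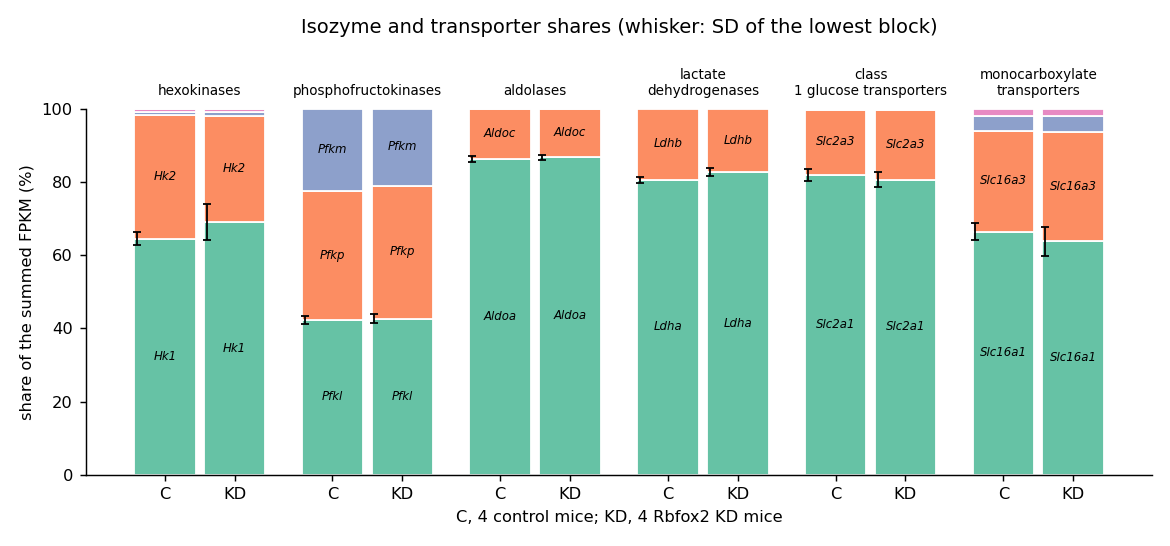
Share of the summed FPKM (vertical axis, %) of each isozyme or transporter in its group, as the mean of 4 control (C) and 4 Rbfox2 KD (KD) mice, with whiskers for the SD of the lowest block. Hk1, Aldoa, Ldha, Slc2a1 and Slc16a1 each held over 60% of their group, and the largest move between the groups was Hk2, from 33.7 to 29.0%.

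Across the members, 3 were higher and 7 lower in the Rbfox2 KD mice, with a median log2 difference of -0.10, against 0.00 over all genes tested and 50.7% of those higher. By the numbers the rule used, 1 of the 10 had an adjusted p under 0.05 (0.0655% of all genes tested), 2 had an unadjusted p under 0.05, Gckr and Pkm (13.3% of all genes), and 1 had groups that did not overlap (7.03% of all genes). Without Gckr, the other 9 ran from -0.26 to 0.10. The signs of 9 members were the same in all 15 alternative settings, and that of Slc2a1 in 14.

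**Figure D3:**
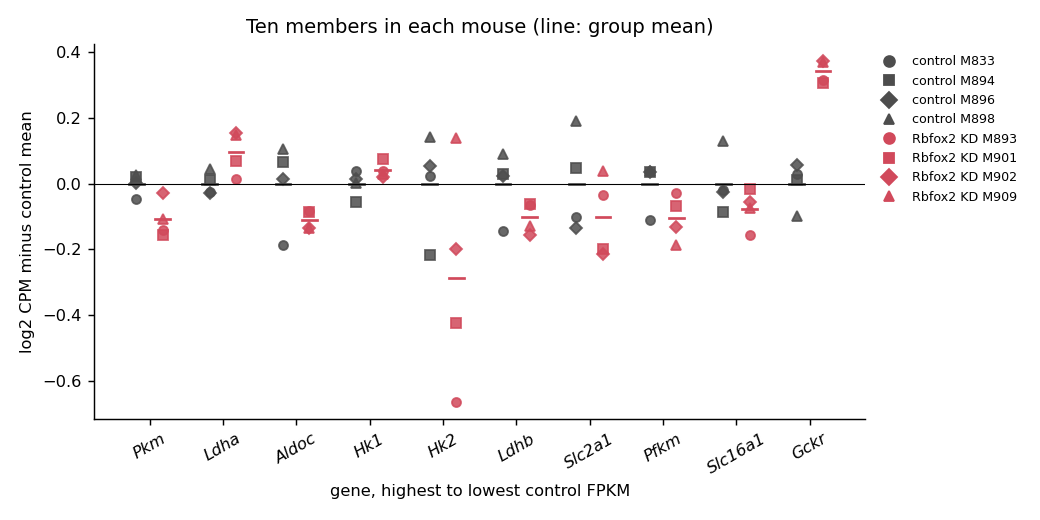
log2 CPM minus the control mean (vertical axis) of the 10 members in each of 8 mice, ordered by control FPKM; horizontal lines are group means. Gckr stands at 0.30 to 0.37 in the 4 Rbfox2 KD mice, the group means of the other lower members lie near -0.10, and Hk2 has the lowest mean and the widest spread, from -0.66 to 0.14.

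Markers of retinal cell types moved beside these genes. Summed cone markers were 848 to 864 CPM in the controls and 911 to 1037 CPM in the Rbfox2 KD mice, with 5 of 6 markers higher. Summed rod markers were 61966 to 66660 and 64304 to 69893 CPM, with 7 of 8 higher. Summed Muller glia markers were 6300 to 6997 and 5621 to 6359 CPM, lower by the sum although 3 of 8 markers were higher. Summed horizontal cell markers were 99.6 to 106 and 81.6 to 85.6 CPM, with 1 of 4 higher. Rod and Muller ranges overlapped between the groups, while cone and horizontal ranges did not. Ranges also overlapped for ganglion cell markers (652 to 1052 and 818 to 1084 CPM, 5 of 6 higher), amacrine markers (991 to 1085 and 985 to 1041 CPM, 1 of 6 higher), bipolar markers (1638 to 1766 and 1604 to 1681 CPM, 2 of 6 higher) and pigment epithelium markers (94.7 to 239 and 82.8 to 213 CPM, 2 of 8 higher). Hepatocyte markers, for the tissue in which Gckr is best known, were at 31.3 to 58.9 and 32.8 to 92.0 CPM, a sum that includes Ttr, also a pigment epithelium marker, while Alb, Serpina1a and Fgb were not among the genes of the table. The part of these cell types in the differences of the members was not tested.

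The wider pathway was read from 10 lists of genes with the members left out. Of 114 other genes, 106 were in the table and 105 tested. In the Rbfox2 KD mice 45 were higher and 60 lower, with a median log2 difference of -0.02. In edgeR, 0 of the 105 had an adjusted p under 0.05, against 0.0655% of all genes. An unadjusted p under 0.05 was found for 11 (5 higher and 6 lower, 10.5% against 13.3% of all genes). At an adjusted p under 0.05, DESeq2 called 1 of the 105, Pdk4, beside 460 of all 16797 genes. The groups did not overlap for 8 of the 105 (7.62% against 7.03% of all genes). The count of 11 moved with single libraries: it was 19 without M833, 17 without M909, 4 without M901, 6 without M896 and 7 without M898, and 4 without both M901 and M902.

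At the entry steps, 3 glucose transporters were higher and 9 lower. The 2 with an unadjusted p under 0.05 were Slc2a4 (log2 difference -0.53, unadjusted p = 0.0374 in edgeR) and Slc2a10 (-1.16, unadjusted p = 0.0489 in edgeR). These 2 are 16.7% of the list, near the 13.3% of all genes. Their group means were 0.245 to 1.08 CPM, and the groups overlapped for both. Slc2a4 was at 1.01 to 1.17 CPM in the controls and at 0.847, 0.550, 0.529 and 1.05 CPM in the Rbfox2 KD mice. Slc2a10 was at 0.259, 0.520, 0.329 and 1.10 CPM in the controls, so control M898 stood apart, and at 0.0945 to 0.358 CPM in the Rbfox2 KD mice. None of 6 lactate transporters and chaperones had an unadjusted p under 0.05, against 13.3% of all genes. Nptn, a chaperone of these transporters, had the lowest p (log2 difference -0.04, SE 0.032). Among 4 other hexokinases and regulators, Hkdc1 was at 11.7, 20.6, 11.9 and 11.0 CPM in the controls and 19.7, 17.3, 15.3 and 20.8 CPM in the Rbfox2 KD mice (0.41, SE 0.19), so that 3 of the controls lay below every Rbfox2 KD mouse. Of 17 other glycolytic enzymes, 12 were higher and 5 lower. Pgam2, the muscle phosphoglycerate mutase, was at 0.566 ± 0.0536 CPM in the controls and 0.771 ± 0.0883 CPM in the Rbfox2 KD mice (unadjusted p = 0.0156 in edgeR), a low level for both.

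Of 15 genes of pyruvate entry into mitochondria, 5 were higher and 10 lower. Pdk3, a kinase that inhibits pyruvate dehydrogenase, was at 30.1 ± 0.713 and 32.2 ± 0.824 CPM, and Mpc2, a subunit of the mitochondrial pyruvate carrier, at 40.3 ± 0.634 and 42.8 ± 0.793 CPM; unadjusted p in edgeR was 0.0266 and 0.0270. Pdk4, a kinase of the same family, was at 0.360, 1.02, 0.538 and 1.07 CPM in the controls and 0.341, 0.342, 0.290 and 0.323 CPM in the Rbfox2 KD mice, low throughout (log2 difference -1.20, SE 0.33). In the pentose phosphate pathway, Rpe (0.20, SE 0.079) and Taldo1 (0.14, SE 0.051) were the 2 of 8 with an unadjusted p under 0.05. This is 25% of the list, against 13.3% of all genes, and with so few genes it does not set the list apart. Of the 8 genes, 5 were higher.

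Of 16 genes of glycogen metabolism, 2 were higher and 14 lower, with a median of -0.05. Gbe1, the branching enzyme, was at 43.3 ± 3.20 and 38.2 ± 0.936 CPM (-0.18, SE 0.054), and Pygm, a glycogen phosphorylase, at 135 ± 3.40 and 128 ± 2.69 CPM (-0.07, SE 0.031). For both, every Rbfox2 KD mouse lay below every control. Groups did not overlap for 12.5% of this list, against 7.03% of all genes. Among 7 genes of gluconeogenesis and fructose metabolism, Sord, which makes fructose from sorbitol, was at 14.1, 15.4, 14.8 and 17.6 CPM in the controls and 13.7, 13.1, 11.8 and 13.2 CPM in the Rbfox2 KD mice (-0.26, SE 0.076), again with no overlap. Of 4 enzymes of fructose 2,6-bisphosphate, Pfkfb2 had the lowest p (0.14, SE 0.074). Of 16 factors of hypoxia and glucose sensing, 8 were higher and 8 lower. In edgeR, 0 of the 16 had an unadjusted p under 0.05, against 13.3% of all genes. Mlxipl, the glucose-sensing factor ChREBP, was at 0.973 ± 0.0718 and 0.737 ± 0.224 CPM, with the low values in M901 (0.623) and M902 (0.479).

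**Figure D4:**
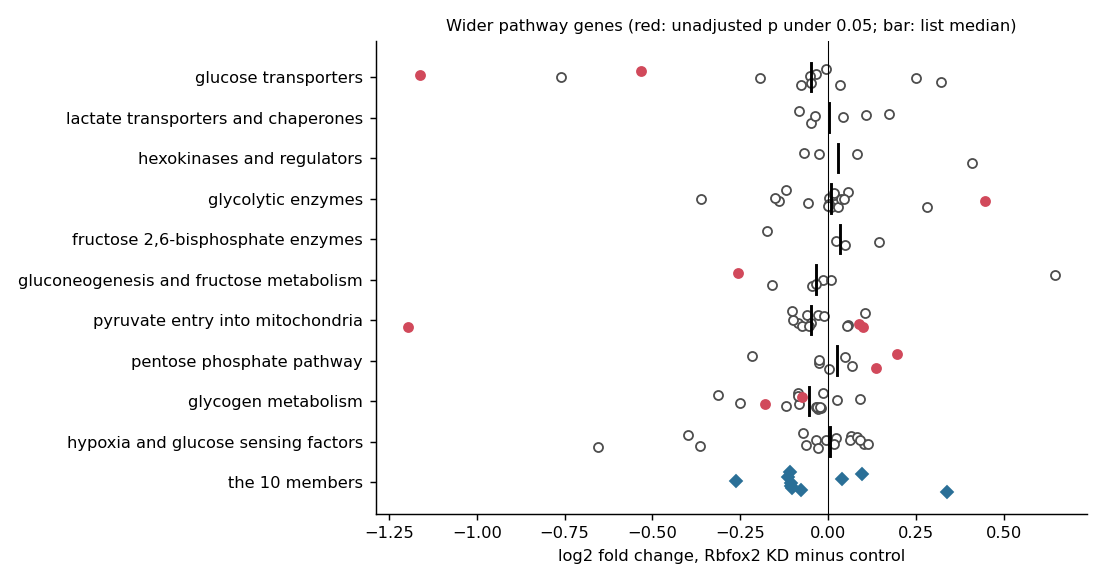
log2 fold change, Rbfox2 KD minus control (horizontal axis), of 105 tested genes in 10 pathway lists (circles; red, unadjusted p under 0.05 in edgeR; bars, list medians) and of the 10 members (diamonds). List medians lie between -0.05 and 0.03, and the changes furthest from 0 are those of Slc2a10 and Pdk4, with means under 1 CPM in both groups.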

How the data were processed

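Poly(A) RNA of 8 whole retinas was sequenced as paired reads. Per the study's methods, the authors used STAR to place reads on mm10 and HTSeq to assign fragments to genes, with reads that mapped to 1 place only; both RefSeq and Ensembl annotation are named for the counting, and whether it used strand is not given in the sources used here. The submitters' processing notes also name CASAVA 1.8.2. The authors deposited raw counts and FPKM (counts divided by gene length and by the library's total) in 1 table. Its 8 columns of the authors' adjusted counts, and its columns of fold changes, p-values and FDR, were not used.

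Low counts were removed with filterByExpr, and the rest were scaled by TMM and tested with edgeR 4.0.16 (R 4.3.3), in the quasi-likelihood test over all 16797 genes, with Benjamini-Hochberg adjustment and a threshold of 0.05. Group differences are log2 fold changes, Rbfox2 KD minus control, with SE. The script was tested on simulated data. Alternatives were DESeq2 size factors, upper quartile scaling, no filter, DESeq2 1.42.0, limma-voom (limma 3.58.1), leaving out each mouse, leaving out M901 and M902, and 1 surrogate variable (sva 3.50.0). Levels of different genes were compared as deposited FPKM, and the isozyme and transporter shares in controls also as counts divided by GENCODE exon length. Coordinates are from GENCODE M21 (GRCm38, the assembly of mm10). CPM in the text are TMM-normalized. The members, lists and tests were chosen with earlier results of these data known. Besides the members, the genes named were Rbfox2, those of each list with an unadjusted p under 0.05 (at most 4) or else the lowest p, the 5 most like Gckr, its neighbour, the genes at the threshold and isozymes with at least 10% of their group's FPKM; Xist, Hk3 and the motifs were named in addition. Some items are not reported here. Each group holds 4 mice, with sex and litter not given in the labels. Exons of Hk1, Pfkm, Pkm and Slc2a1 overlap those of other annotated genes by 18 to 767 bases, so their counts could hold reads of those genes.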

Additional observations from a re-analysis of the deposited data

Results flagged for a closer look

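In 1 of 20 groups of 4 values (10 members in each group of mice), a single mouse lay far from the rest, and chance flags about 1 in 20 such groups. Pfkm was at 193.5 CPM in control mouse M833 and at 214.2 to 214.8 CPM in the other 3 controls.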

How the results depend on the processing

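The members kept their direction in all 15 alternatives, except Slc2a1 (0.03 with a surrogate variable). Gckr had an adjusted p under 0.05 in 6 of the 15, among them limma-voom (0.0269) and DESeq2 (2.4e-09). Its adjusted p was 0.201 with a surrogate variable and 0.251 without M901 and M902. These refits reuse the libraries from which Gckr was chosen, so they describe that choice and do not test it. The 11 genes with an adjusted p under 0.05 became 460 with DESeq2, 4 with a surrogate variable, 1 without M901 and M902, and 5 to 35 with single mice left out. The 11 wider pathway genes with an unadjusted p under 0.05 became 6 with a surrogate variable, 4 without M901 and M902, and 4 to 19 with single mice left out; with an adjusted p under 0.05 there were 0, and 1 with DESeq2. The cause was not tested. Under GENCODE exon lengths, longer for some genes than those in the FPKM, control shares became 49.3% for Hk1, 48.8% for Hk2, 35.6% for Pfkm, 71.3% for Ldha, 28.7% for Ldhb, 85.9% for Slc2a1 and 80.1% for Slc16a1. Depth did not limit the members, whose lowest count in a library was 6035 (Gckr); the number of mice limits the precision.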
